A study of Homo sapiens with 8 samples.

Results

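MED12 E33Q knock-in HCT116 cells were compared with wild-type HCT116 cells before any treatment, over all genes. HCT116 is a human colorectal carcinoma line. The knock-in line was made from it with CRISPR-Cas9 and carries a glutamate-to-glutamine change at position 33 of MED12. The comparison was defined by the columns of the deposited count table labelled 0 h, 2 libraries from each line, which are 4 of the 8 libraries in the series. The other 4 libraries came from the same lines after 24 h with 5 ng/ml interferon-γ (IFN-γ) and enter here only as a second measurement of the line difference. All cells were grown in McCoy's 5A medium with fetal bovine serum, and total RNA was depleted of small RNA and of rRNA before sequencing. A total of 16519 genes passed the filter on low counts, out of 40295 gene IDs. The labels name 1 knock-in line, so an effect of E33Q and any other difference between that line and its parent cannot be told apart. The labels do not say whether libraries 1 and 2 of a line came from separate cultures, so the p-values measure the spread between libraries, which may be technical.

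MED12 is a subunit of the kinase module of Mediator, the complex that connects transcription factors with RNA polymerase II. The module also holds MED13, cyclin C (CCNC) and the kinase CDK8, with MED12L, MED13L and CDK19 as paralogues, and it binds the Mediator core reversibly. An N-terminal segment of MED12 activates CDK8 through cyclin C, and that segment contains the changed residue. In colorectal cancer cells CDK8 is known for its part in Wnt and β-catenin transcription, and the module has also been tied to serum response, interferon and lipid synthesis genes.

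The reference coding sequence around the changed residue is shown because the comparison rests on it. It was read from GENCODE release 29 on GRCh38, runs over codons 24 to 42 of MED12 on the plus strand and spans exons 1 and 2 of 45 (chrX:71118824-71119399, with the intron left out), and capitals mark codon 33, GAG for glutamate, at chrX:71118851-71118853.
MED12: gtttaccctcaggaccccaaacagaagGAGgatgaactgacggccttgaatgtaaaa
The deposited counts hold no read sequence, so the edit itself was not analysed here.

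The libraries held 22475583 and 22911573 estimated counts in wild-type and 20873145 and 28006378 in knock-in cells. Epithelial keratins were abundant in all 4, with KRT8 at 1839 and 1440.3 CPM (counts scaled to the size of the library) in wild-type and 2355 and 2309 in knock-in cells and EPCAM, an epithelial surface protein, at 217 and 209 against 144 and 189. The enterocyte marker VIL1 was at 0 in all 4, and LGALS4 was below 1 CPM. RNA typical of plasma cells was present in 3 of the 4 libraries. Immunoglobulin genes summed to 374 and 416 CPM in the wild-type libraries, 0.668 in knock-in library 1 and 359 in knock-in library 2. The 18 plasma cell markers summed to 647 and 795 CPM in wild-type, 68.3 in knock-in library 1 and 621 in knock-in library 2, and the 20 leukocyte markers to 68.5, 87.03, 16.05 and 75.5 CPM. Of the plasma cell sums, SDC1 alone was at 294 and 397 CPM in wild-type, 66.5 in knock-in library 1 and 272 in knock-in library 2. In knock-in library 1, JCHAIN was at 0.0557 CPM and IGKC and IGHA1 at 0. With IFN-γ, SDC1 was at 63.6 and 61.3 CPM in the wild-type libraries, which held little immunoglobulin RNA. RNA typical of plasma cells was low in knock-in library 1 alone. Of the 12 plasma cell and 11 leukocyte markers tested, 0 passed in edgeR, DESeq2 or limma-voom, with 0 at an unadjusted p under 0.05. With no filter on low counts, however, edgeR called 7 of 16 plasma cell markers and 1 of 17 leukocyte markers lower in knock-in cells, and without knock-in library 2 it called 1 leukocyte marker lower. The part of this RNA in any single result was not tested.

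Without treatment, 703 genes were higher and 689 lower in knock-in cells at an adjusted p under 0.05 (edgeR's quasi-likelihood test, Benjamini-Hochberg adjustment). That was 8.43% of the 16519 genes tested, 4.26% higher and 4.17% lower, and these shares are the background for every gene list below. The median CPM was 37.6 for genes called higher and 24.9 for those called lower, against 14.8 for genes not called. The shares were not matched to the lists for abundance, so a list count above them is a description only. Of the called genes, 316 rose and 303 fell at least 2-fold, and 108 and 56 at least 4-fold. The median log2 fold change was 0.92 among the genes called higher and -0.95 among those called lower, against -0.02 over all genes tested. In 0 of the 1392 called genes did the 2 wild-type values overlap the 2 knock-in values. The share without overlap over all genes tested was not computed, so a gap between the lines adds no support to a call, here or below. Scaled to the ERCC spike-in RNAs instead of to the bulk of genes, the median of all genes moved from -0.02 to -0.35 and the calls became 150 higher and 517 lower, so directions below are relative to the bulk of genes. All 1392 calls had the same direction wherever an alternative also called them. Every alternative reused these libraries, so this adds no support to the directions. The number of calls depended on single libraries. It was 822 without wild-type library 1, 4815 without wild-type library 2, 534 without knock-in library 1 and 406 without knock-in library 2, and 180 higher and 107 lower genes were called in all 4 of these fits. A gene described below as held was one of those. Relative to the median of all genes, the medians of the TGF-β and BMP, mesenchymal, intestinal, junction, glycosylation, immediate early, ribosome biogenesis, cholesterol, glycolysis, stress response, Notch, interferon and cell cycle lists kept their sign in every alternative fit. Those of the kinase module, core Mediator, Wnt, p53, ribosomal protein, laminin, growth factor, YAP, NF-κB, cancer-testis, heat shock, DNA repair and mitochondrially encoded lists changed sign in at least 1, so no direction is given for them.

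**Figure D1:**
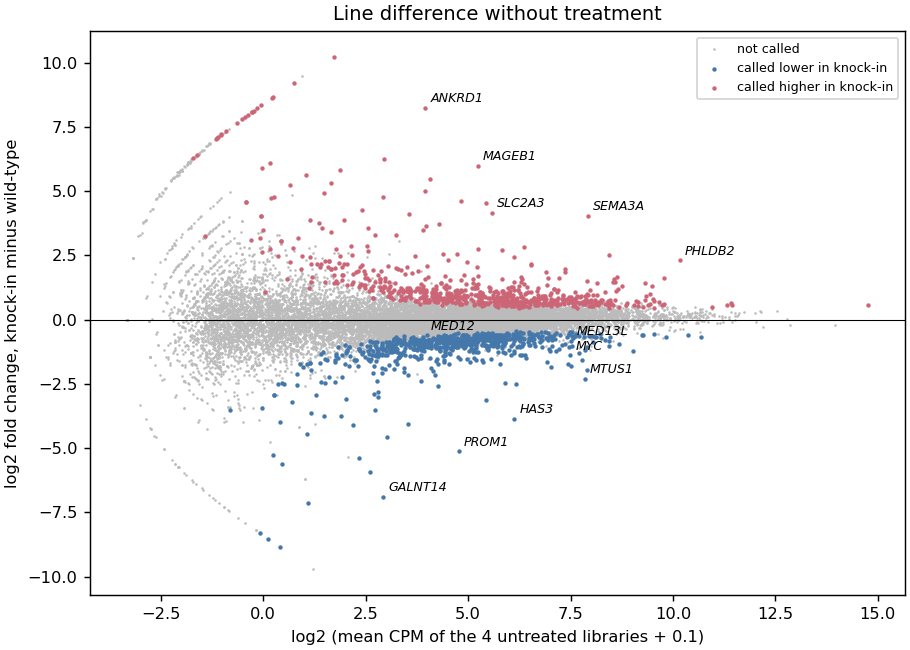
Each point is 1 of the tested genes, those of chromosome Y left out. The x axis is log2 of the mean CPM of the 4 untreated libraries plus 0.1, and the y axis is the fitted log2 fold change, knock-in minus wild-type. Red and blue points are the genes called higher and lower, and the outer arcs at low CPM are genes with counts in 1 line only, whose fitted fold change is not a bound. Points far from 0 occur up to abundant genes such as PHLDB2.

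Wild-type library 1 stood apart from the other 3 in GC content. The count-weighted mean GC content of its transcripts was 48.1%, against 47.0% in wild-type library 2 and 46.8% and 46.9% in the knock-in libraries. Its log CPM correlated at 0.967 and 0.965 with the knock-in libraries, where wild-type library 2 reached 0.977 and 0.980 (across genes, which are not independent replicates). The wild-type libraries correlated at 0.982 with each other and the knock-in libraries at 0.988. The line difference followed GC content. Its median fell from 0.20 in the lowest of 5 equal bins of genes by GC content to -0.34 in the highest, while wild-type library 1 minus wild-type library 2 went from -0.32 to 0.42 over the same bins. The genes called higher had a median GC content of 44.7% and those called lower 55.1%. With the trend of every library on GC content and length taken out, 1147 genes were called higher and 1375 lower, among them 658 of the 703 and 645 of the 689. For the lists whose median kept its sign, the medians without this library and with the trend removed are given beside the counts, and its part in the medians was not tested further.

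**Figure D2:**
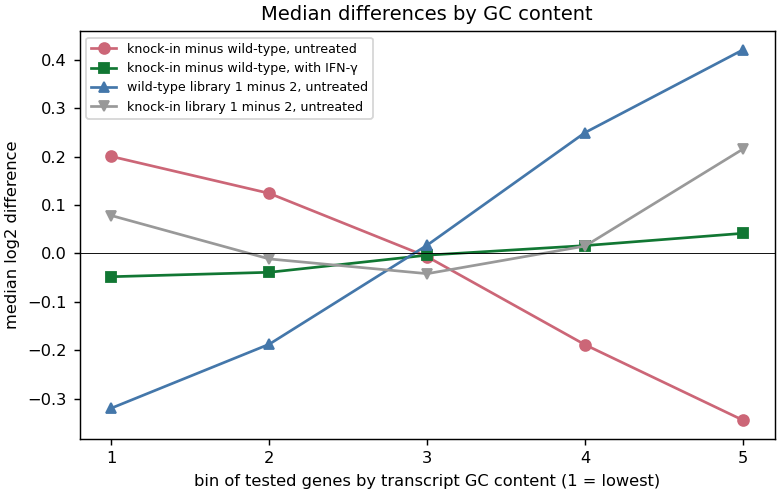
Genes with a known GC content were divided into 5 equal bins (x axis, 1 for the lowest), and the y axis gives the median log2 difference in each bin. Red circles are knock-in minus wild-type without treatment, falling from 0.20 to -0.34, green squares the same with IFN-γ, from -0.05 to 0.04, blue triangles wild-type library 1 minus 2, from -0.32 to 0.42, and grey triangles knock-in library 1 minus 2, from 0.08 to 0.22.

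Of the 7 kinase module genes tested, 1 paralogue rose and 1 fell. MED13L, a large scaffold subunit, was at 246 and 219 CPM in wild-type and 144 and 119.8 in knock-in cells, a log2 fold change of -0.82 ± 0.13 (adjusted p = 0.00743). CDK19, the second kinase of the module, was at 15.9 and 14.5 CPM in wild-type and 30.7 and 23.5 in knock-in cells, 0.83 ± 0.17 (adjusted p = 0.0227). Neither pair of groups overlapped, but the MED13L call was lost without knock-in library 2 and the CDK19 call without wild-type library 1 or knock-in library 1. MED12 mRNA was at 23.1 and 14.2 CPM in wild-type and 12.9 and 11.2 in knock-in cells, and its log2 fold change of -0.63 ± 0.24 did not pass (adjusted p = 0.123), with wild-type library 1 the only high value. Without that library the value was -0.24, and without wild-type library 2 it was -0.94 and passed. CDK8 was at 48.96 and 50.6 against 42.2 and 35.04 CPM, -0.37 ± 0.14 (adjusted p = 0.138). Its groups did not overlap, and with the GC and length trend removed its value of -0.59 passed (adjusted p = 0.0144). CCNC, MED13 and MED12L had log2 fold changes of 0.27, 0.17 and -0.10 and did not pass, but without wild-type library 2 CCNC was at 0.48 and passed. Of the 26 core subunits tested, MED23, MED21 and MED19 were called higher and MED24 lower, at 0.82, 0.78, 0.69 and -0.75, and 0 of these 4 calls was held.

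Genes that were nearly silent in 1 line and expressed in the other gave the largest differences. ANKRD1, a muscle ankyrin repeat protein and a target of YAP and TEAD factors, was at 0.138 and 0.0501 CPM in wild-type and 30.6 and 30.4 in knock-in cells, a log2 fold change of 8.24 ± 0.46 (adjusted p = 2.38e-05). SPARC, a secreted collagen-binding protein, was at 0.04597 and 0.351 CPM in wild-type and 12.7 and 17.2 in knock-in cells, 6.23 ± 0.55 (adjusted p = 0.000691). MAGEB1, an X-linked gene of the cancer-testis class, was at 0.919 and 1.403 CPM in wild-type and 66.6 and 80.8 in knock-in cells, 5.99 ± 0.25 (adjusted p = 6.48e-06). In all 3 genes both knock-in values lay far above both wild-type values, which were at most 1.40 CPM. Of 16 genes of the cancer-testis list tested, MAGEB1 was the only one called. ANGPT2, a ligand of the TIE2 receptor, was at 1.103 and 0.752 against 29.9 and 29.4 CPM and FLRT3, an adhesion protein and FGF signalling partner, at 0.368 and 1.102 against 34.9 and 30.6 CPM, 4.98 and 5.49 on the log2 scale. TNFSF18, the ligand of GITR, was at 3.31 and 3.76 CPM in wild-type and 87.4 and 78.9 in knock-in cells, 4.56 ± 0.39 (adjusted p = 0.000259). SLC2A3, the glucose transporter GLUT3, was at 5.15 and 4.91 CPM in wild-type and 89.97 and 90.8 in knock-in cells, 4.17 ± 0.17 (adjusted p = 6.48e-06). Of these 4 genes, TNFSF18 and SLC2A3 had close replicates, and the wild-type values of FLRT3 lay far apart. FAM50B, an imprinted gene, CAVIN2, a caveolar coat protein, ISPD, an enzyme of dystroglycan glycosylation, SYTL5, a Rab27 effector, and DCLK1, a doublecortin-like kinase, had log2 fold changes of 4.93, 4.75, 4.63, 4.27 and 4.10, and all 5 were held. GALNT4, a mucin-type glycosyltransferase, had 0 counts in both wild-type libraries and 7.58 and 5.21 CPM in knock-in cells, at least 44.4-fold higher (floor of 3 counts per library, counting error only). Its call was lost in each fit without 1 library, and the annotated readthrough POC1B-GALNT4, with which it shares sequence, was at 12.5 and 11.1 against 14.3 and 12.5 CPM, so the split of reads between them is uncertain.

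**Figure D3:**
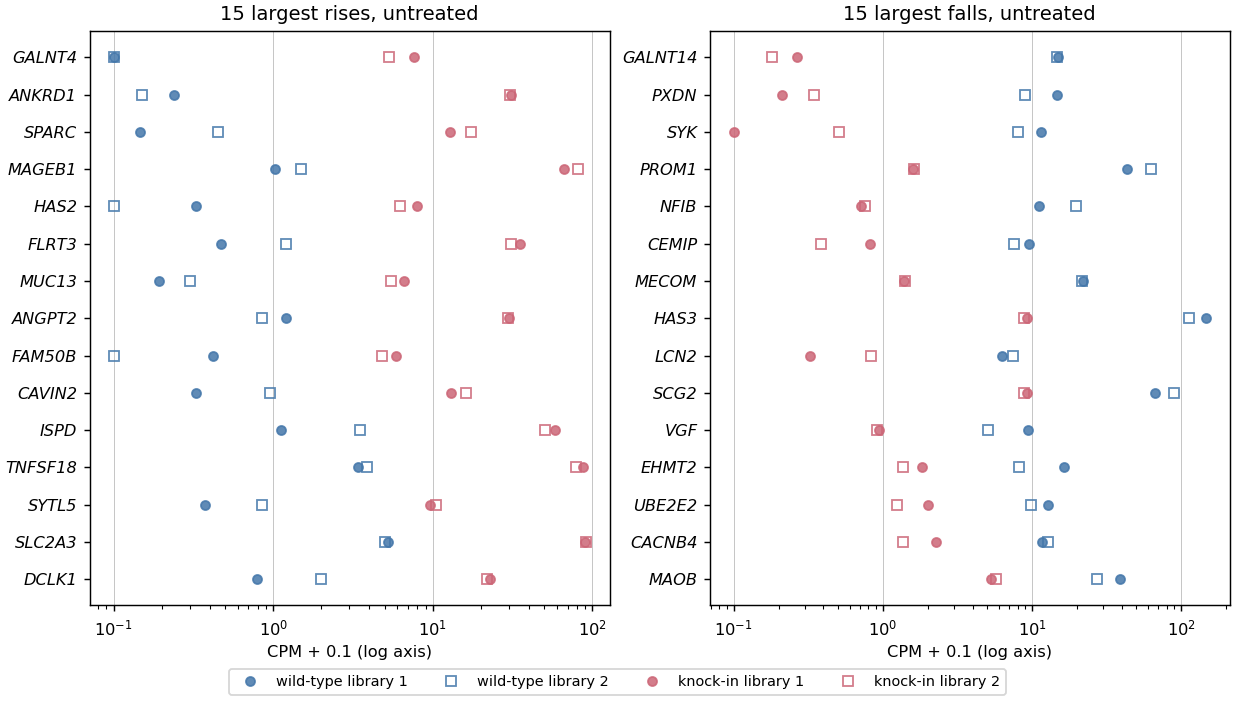
CPM plus 0.1 on a log axis in each of the 4 untreated libraries for the genes with the 15 largest rises and the 15 largest falls that passed the test and reached a mean of 5 CPM in one line. Blue symbols are wild-type and red symbols knock-in, filled circles library 1 and open squares library 2. Genes were taken only where the values of the lines did not overlap, so the gap is a condition of the choice. Replicates lie closest at the higher CPM.

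The largest falls were smaller, the 15 running from -6.89 to -2.60 where the 15 largest rises, GALNT4 aside, ran from 4.10 to 8.24. GALNT14, another mucin-type glycosyltransferase, was at 14.8 and 14.7 CPM in wild-type and 0.167 and 0.0821 in knock-in cells, -6.89 ± 0.46 (adjusted p = 7.23e-05). PROM1, encoding the stem and progenitor surface protein CD133, was at 42.98 and 62.6 CPM in wild-type and 1.504 and 1.52 in knock-in cells, -5.12 ± 0.26 (adjusted p = 1.56e-05). SCG2, a secretory granule protein, was at 66.1 and 89.5 CPM in wild-type and 9.14 and 8.699 in knock-in cells, -3.12 ± 0.19 (adjusted p = 5.18e-05). All 3 kept a wide gap between the lines in every library. PXDN, a peroxidase that cross-links collagen IV, was at 14.6 and 8.87 against 0.111 and 0.246 CPM and SYK, a non-receptor tyrosine kinase, at 11.4 and 7.97 against 0 and 0.4103 CPM, -5.93 and -5.37 on the log2 scale. A pair of transcription factor genes fell with them, NFIB from 11.1 and 19.5 to 0.613 and 0.657 CPM and MECOM from 21.8 and 21.4 to 1.28 and 1.31 CPM, -4.57 and -4.05. MAOB, the monoamine oxidase B gene, was at 38.9 and 27.3 CPM in wild-type and 5.24 and 5.66 in knock-in cells, -2.60 ± 0.21 (adjusted p = 0.000199). LCN2, an iron-siderophore binding protein, VGF, a granin-like precursor, UBE2E2, a ubiquitin-conjugating enzyme, and CACNB4, a calcium channel subunit, had log2 fold changes of -3.75, -3.10, -2.90 and -2.83, and these calls were held. EHMT2, a histone H3 lysine 9 methyltransferase, was at 16.2 and 8.02 CPM in wild-type and 1.73 and 1.27 in knock-in cells, -3.03 ± 0.47 (adjusted p = 0.00591). Its call was lost without knock-in library 2, and an ID with no name in the annotation held nearly the same counts, so the gene is uncertain.

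Abundant genes moved by less but with small errors. PHLDB2, a cortical protein that anchors microtubules at focal adhesions, rose from 334 and 437 CPM in wild-type to 1970.4 and 1849.7 in knock-in cells, 2.31 ± 0.15 (adjusted p = 6.43e-05). ABHD10, a mitochondrial depalmitoylase, rose from 342 and 519.9 to 1407 and 1269 CPM, 1.63 ± 0.19 (adjusted p = 0.00153). HMGA1, a chromatin architectural protein, fell from 868 and 598 to 349.5 and 281 CPM, -1.22 ± 0.18 (adjusted p = 0.005). HMGA1 was the only fall among the 10 most abundant called genes with at least a 2-fold change. The other rises were ARHGAP18, a RhoA regulator, the microtubule regulator STMN1, annexin ANXA3, the condensin subunit SMC2, the ERK phosphatase DUSP6, the splicing regulator MBNL2 and the ubiquitin ligase scaffold CUL4B. Their log2 fold changes were 1.32, 1.01, 1.41, 1.32, 1.20, 1.65 and 1.11, and all 10 calls were held.

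Genes of TGF-β and BMP signalling were called higher in 9 and lower in 0 of 34 members tested, with a median of 0.32 against -0.02 over all genes. Among the ligands, TGFB2 was at 0.2298 and 0.451 CPM in wild-type and 4.46 and 4.72 in knock-in cells, 3.74 ± 0.56 (adjusted p = 0.0054), and BMP4 at 64.7 and 58.6 against 172 and 202 CPM, 1.60 ± 0.14 (adjusted p = 0.000259). The receptors TGFBR2 and BMPR2 rose by 0.65 and 0.88. Direct targets and feedback genes rose with them, the inhibitory SMADs SMAD6 from 4.78 and 3.16 to 18.3 and 12.7 CPM and SMAD7 from 3.54 and 1.603 to 12.1 and 7.76 CPM, and ID2 (1.26), ID3 (0.92) and the SMAD corepressor SKIL (1.12). BMP4, TGFB2, SMAD6 and ID2 were held, and between 4 (without knock-in library 1) and 12 (without wild-type library 2) members were called higher without 1 library. The median was 0.19 without either knock-in library and 0.24 without wild-type library 1. With the GC trend removed, 10 were called higher and 2 lower, with a median of 0.29.

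Of 22 mesenchymal and invasion genes tested, 5 were called higher and 1 lower, with a median of 0.19, which was 0.29 without wild-type library 1 and 0.26 with the GC trend removed. FN1, fibronectin, was at 2.21 and 1.703 CPM in wild-type and 9.19 and 7.71 in knock-in cells, 2.10 ± 0.25 (adjusted p = 0.00173), and TAGLN, the actin-binding transgelin, at 6.02 and 5.46 against 17.7 and 24.9 CPM, 1.89 ± 0.21 (adjusted p = 0.00139). MMP14, a membrane metalloprotease, and S100A4 rose by 1.23 and 0.65, the latter lost without wild-type library 1 or knock-in library 2. PLAU, the urokinase protease, went the other way, from 38.2 and 28.8 to 13.5 and 13.05 CPM, -1.33 ± 0.17 (adjusted p = 0.00276). VIM, the mesenchymal filament vimentin, was at 24.8 and 30.2 CPM in wild-type and 21.9 and 40.5 in knock-in cells, where the groups overlapped and the value of 0.19 ± 0.37 did not pass (adjusted p = 0.787). CDH1, E-cadherin, at 31.4 and 26.9 against 24.2 and 24.3 CPM did not pass either (-0.27 ± 0.15, adjusted p = 0.275). Of 6 fibroblast markers tested, COL3A1 and the matrix protein FBLN1 (0.97) were called higher, and both calls were lost without wild-type library 1 or knock-in library 1. The 11 fibroblast markers summed to 13.3 and 11.05 CPM in wild-type and 23.7 and 18.8 in knock-in cells. The part of other cells in these values was not tested. Of the 5 endothelial markers tested, 0 passed in edgeR, DESeq2 or limma-voom and 1 had an unadjusted p under 0.05, and the 10 on the list summed to 5.12 to 7.50 CPM.

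Matrix and adhesion genes moved both ways. Of 35 laminins, collagens and integrins tested, 4 were called higher and 3 lower, with a median of 0.03. ITGB8, the integrin subunit that helps activate latent TGF-β, was at 8.73 and 10.8 CPM in wild-type and 73.1 and 57.5 in knock-in cells, 2.74 ± 0.18 (adjusted p = 7.14e-05). COL13A1, a transmembrane collagen, rose by 1.75 and the laminin chain LAMB1 by 1.02. COL3A1, a fibrillar collagen, had 0 counts in both wild-type libraries and 1.67 and 1.52 CPM in knock-in cells, at least 11.1-fold higher, but its call was lost without wild-type library 1 or either knock-in library. The laminin chains LAMA3 and LAMC1 had log2 fold changes of -0.998 and -0.70, and 0 of these was held.

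Targets of YAP and TEAD divided as well, with 5 called higher and 3 lower of 23 tested and a median of 0.17. Beside ANKRD1 and TGFB2, F3, tissue factor, rose from 38.8 and 36.8 to 84.2 and 91.9 CPM, 1.22 ± 0.13 (adjusted p = 0.000873), and CRIM1 and WWTR1 rose by 0.78 and 0.59. FJX1, a secreted Golgi kinase relative, fell from 13.1 and 9.92 to 3.68 and 2.63 CPM, -1.87 ± 0.25 (adjusted p = 0.00289), and NT5E, the surface nucleotidase CD73, from 236 and 267 to 119.7 and 124 CPM, -1.05 ± 0.12 (adjusted p = 0.00168). AMOTL1, an angiomotin that binds YAP, fell by 0.88 on the log2 scale. The median was 0.63 without wild-type library 1, -0.13 without wild-type library 2 and -0.06 without knock-in library 1, so its sign rested on single libraries.

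Of 14 intestinal epithelial genes tested, 5 were called higher and 0 lower, with a median of 0.56, while 22 genes of the list did not pass the filter on low counts. With no filter the median was 0.20 over 27 members. Over the filtered members it was 0.60 without wild-type library 1 and 0.69 with the GC trend removed. MUC13, a transmembrane mucin of the gut, was at 0.0919 and 0.2004 CPM in wild-type and 6.46 and 5.38 in knock-in cells, 5.30 ± 0.57 (adjusted p = 0.00111). HNF4A, a nuclear receptor of gut and liver epithelium, was at 5.52 and 3.36 CPM in wild-type and 12.8 and 11.53 in knock-in cells, 1.45 ± 0.24 (adjusted p = 0.00883). Both were held, whereas HNF4G (1.13), KRT18 (0.77) and KRT8 (0.51) were lost without either knock-in library, and HNF4G also without wild-type library 1. CDX2, the intestinal homeobox factor, did not pass, at 6.11 and 3.66 CPM in wild-type and 3.62 and 2.01 in knock-in cells (-0.81 ± 0.39, adjusted p = 0.219), and its groups nearly met. Among 24 junction and adhesion genes tested, 2 were called higher and 4 lower, with a median of -0.22, which was -0.04 without wild-type library 1 and -0.22 with the GC trend removed. CLDN2, a pore-forming claudin, was at 0 and 0.0501 CPM in wild-type, 1 count in all, and 2.12 and 1.93 in knock-in cells, a ratio of 83.8 with an exact counting interval of 14.6 to 3347. The barrier claudin CLDN7, the protease ST14 and the epithelial factors OVOL1 and GRHL2 fell by 0.79, 0.94, 1.01 and 0.77 on the log2 scale, and the splicing regulator ESRP1 rose by 0.52. CLDN2 was held, and 0 of the 4 falls was.

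Mucin-type O-glycosylation and hyaluronan synthesis genes moved in both directions within a family. Of 28 tested, 3 were called higher and 8 lower, with a median of -0.17. It was -0.13 without wild-type library 1, -0.34 without wild-type library 2 and -0.22 with the GC trend removed. HAS2 and HAS3, both hyaluronan synthases, moved in opposite directions. HAS2 rose from 0.2298 and 0 to 7.85 and 6.15 CPM, 5.82 ± 0.89 (adjusted p = 0.0057), and HAS3 fell from 146 and 113 to 9.14 and 8.699 CPM, -3.86 ± 0.17 (adjusted p = 7.13e-06). CEMIP, a hyaluronan-binding protein needed for its breakdown, fell from 9.38 and 7.47 to 0.724 and 0.287 CPM, -4.09 ± 0.41 (adjusted p = 0.000765). Among the GALNT transferases, which start O-glycan chains, GALNT14, GALNT3, GALNT18, GALNT6 and GALNT2 were lower and GALNT4, uncertain as described above, was higher. GALNT3 went from 35.03 and 43.5 to 14.4 and 14.2 CPM and GALNT18 from 35.4 and 24.5 to 11.8 and 10.9 CPM, -1.46 and -1.40 on the log2 scale. HAS2, HAS3, GALNT14, GALNT3 and GALNT18 were held. GCNT1, which branches O-glycan chains, and the sialyltransferase ST3GAL1, which caps them, fell by 0.78 and 0.76. FUT8, a fucosyltransferase of N-glycans that the list also holds, rose by 0.53, and none of these 3 was held.

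Immediate early and serum response genes are transcribed within minutes of growth factor signalling. Of 33 tested, 8 were called lower and 1 higher, with a median of -0.42. MYC, the growth-promoting transcription factor, was at 316 and 202 CPM in wild-type and 92.5 and 105 in knock-in cells, -1.39 ± 0.19 (adjusted p = 0.00356). FOS was at 201 and 156 against 74.03 and 80.7 CPM, -1.21 ± 0.15 (adjusted p = 0.00199), and its relative FOSB at 19.8 and 14.03 against 5.12 and 4.19 CPM, -1.87 ± 0.22 (adjusted p = 0.00178). EGR1, a zinc finger factor, was at 20.3 and 17.03 CPM in wild-type and 7.52 and 6.32 in knock-in cells, -1.43 ± 0.18 (adjusted p = 0.00222). These 4 were held, with both knock-in values well below both wild-type values. FOSL1, KLF4, SPRY4 and PHLDA1 fell by 1.30, 1.35, 0.93 and 0.65 on the log2 scale, and 0 of these was held. DUSP6, an ERK feedback phosphatase, rose from 262 and 231 to 524 and 605 CPM. Without 1 library, between 4 (without knock-in library 2) and 14 (without wild-type library 2) members were called lower, and the list's median was -0.18 without wild-type library 1, -0.27 without knock-in library 2 and -0.15 with the GC trend removed, where 8 were still called lower.

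The EGR1 promoter is shown for its CArG box, the site of serum response factor, in the 250 bases before to 50 after the start. Of the 7 called members of this list with a matched promoter, EGR1 was the only 1 with the box. The other called members were not searched. The box was searched on both strands and was present in 1.293% of 35116 promoters in RefSeq on GRCh38.p14. Promoters were matched for 25 of the 36 genes of the list, and EGR1, EGR2 and SRF held the box. A gene counted if any of its promoters matched, so this count and the share per promoter are not alike. Capitals mark 2 boxes, starting 105 and 83 bases before the start, in chr5:138465329-138465450 on the plus strand.
EGR1: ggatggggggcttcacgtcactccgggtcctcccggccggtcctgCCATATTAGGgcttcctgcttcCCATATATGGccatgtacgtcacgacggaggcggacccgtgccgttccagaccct
A match describes the letters in this window and says nothing of binding in these cells.

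Ribosome biogenesis genes and other MYC targets were called lower in 7 and higher in 0 of 29 tested, with a median of -0.35, which was -0.37 without wild-type library 1 and -0.33 with the GC trend removed. Beside MYC, the nucleolar assembly factors PPAN, RRS1, BOP1, NOP14 and RRP9 and the polyamine enzyme ODC1 fell by 0.95, 0.92, 0.89, 0.77, 0.60 and 0.55 on the log2 scale. NOP14 went from 118 and 89.8 CPM in wild-type to 61.9 and 60.1 in knock-in cells and ODC1 from 811 and 949 to 604 and 601 CPM, without overlap. MYC was the only held member, the RRP9 call was lost with the GC trend removed, and 1 member was called lower without knock-in library 2, 3 without knock-in library 1 and 14 without wild-type library 2. BOP1 shares identical counts with another ID, and PPAN shares sequence with the readthrough PPAN-P2RY11, so both are uncertain. The 54 cytosolic ribosomal protein genes had 0 called by edgeR and 6 at an unadjusted p under 0.05 (DESeq2 called 1 higher, limma-voom 0), and a median of 0.11, but 21 were called higher without wild-type library 2.

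Of 33 cholesterol and fatty acid synthesis genes tested, 12 were called lower and 0 higher, with a median of -0.48. In the sterol branch, mevalonate kinase MVK fell from 23.7 and 17.4 to 8.30 and 7.43 CPM, -1.39 ± 0.21 (adjusted p = 0.00591). TM7SF2, DHCR7, CYP51A1 and SQLE, all enzymes of the same branch, fell by 1.00, 0.94, 0.78 and 0.53 on the log2 scale. In the fatty acid branch, SCD, the stearoyl-CoA desaturase, fell from 1719 and 1452 to 1062 and 1022 CPM and ACACA, acetyl-CoA carboxylase, from 254 and 146 to 66.6 and 104 CPM, -0.61 and -1.23 on the log2 scale, and ELOVL6 and FADS1 fell by 0.62 and 0.61. The regulators SREBF2 and INSIG1 fell by 0.73 and 0.70. In none of the genes named here did the lines overlap, and 0 of them was held. Of the list, 2 (without knock-in library 2), 4 (without knock-in library 1) and 19 (without wild-type library 2) members were called lower in the fits without 1 library. The median was -0.31 without wild-type library 1 and -0.32 without knock-in library 2. With the GC trend removed, 16 were called lower and 0 higher, with a median of -0.34, and in the IFN-γ pair 7 were called lower and 0 higher, with a median of -0.48.

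Of 36 glycolysis and hypoxia genes tested, 10 were called lower and 2 higher, with a median of -0.51. Hexokinase HK2 was at 108 and 81.96 CPM in wild-type and 39.8 and 33.1 in knock-in cells, -1.39 ± 0.16 (adjusted p = 0.00178), and the hypoxia-induced NDRG1 at 95.3 and 73.5 against 38.2 and 31.2 CPM, -1.28 ± 0.17 (adjusted p = 0.00273). The oxygen-sensing hydroxylase EGLN3, adrenomedullin ADM, the enzymes PFKFB4, ALDOC, GPI and PFKM, the kinase PDK1 and the mitophagy receptor BNIP3 fell by 1.53, 0.92, 0.78, 0.78, 0.65, 0.51, 0.77 and 0.77 on the log2 scale. SLC2A3, described above, and BNIP3L (0.72) rose. HK2, NDRG1 and SLC2A3 were held, and 2 members were called lower without knock-in library 1, 4 without knock-in library 2 and 18 without wild-type library 2. The median was -0.33 without wild-type library 1, -0.33 with the GC trend removed, where 16 were called lower, and -0.12 in the IFN-γ pair.

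Genes of the integrated stress and unfolded protein responses were called higher in 9 and lower in 1 of 33 tested, with a median of 0.13. The median was 0.06 without knock-in library 2, 0.27 without knock-in library 1, 0.25 without wild-type library 1 and 0.26 with the GC trend removed. CHAC1, a glutathione-degrading enzyme induced by ATF4, was at 3.31 and 2.81 CPM in wild-type and 10.8 and 11.8 in knock-in cells, 1.88 ± 0.24 (adjusted p = 0.00253). SLC7A11, the cystine importer, was at 74.8 and 72.1 CPM in wild-type and 259.7 and 192 in knock-in cells, 1.62 ± 0.16 (adjusted p = 0.000752). PHGDH, the first enzyme of serine synthesis, was at 76.7 and 49.4 CPM in wild-type and 148 and 146 in knock-in cells, 1.22 ± 0.19 (adjusted p = 0.00565). Rises were also called for ATF4 itself (0.46), the serine enzyme PSAT1 (0.67), the folate enzyme MTHFD2 (0.57), asparagine synthetase ASNS (0.92) and the factor DDIT3 (0.93). XBP1, a factor of the unfolded protein response that plasma cells also express, was at 76.2 and 95.2 CPM in wild-type and 166 and 186 in knock-in cells, a rise of 1.04 ± 0.14 (adjusted p = 0.00343). Plasma cell RNA was lowest in knock-in library 1, and the part of this RNA in the XBP1 values was not tested. ATF5 was the one fall (-1.38), lost without wild-type library 1 or either knock-in library. CHAC1, SLC7A11, PHGDH and XBP1 were held, and between 4 (without knock-in library 2) and 11 (without wild-type library 2) members were called higher without 1 library.

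The promoters of ASNS and CHAC1 are shown for the C/EBP-ATF composite element TGATGNAA, the amino acid response site. They were the 2 with this element among the 9 called members with a matched promoter. The element was searched on both strands and was present in 3.617% of the 35116 promoters. Of the 33 genes of the list, 29 had a matched promoter, and 4 of these genes held the element. A gene counted if any of its promoters matched, so this count and the share per promoter are not alike. The other 2, SLC3A2 and HERPUD1, were not called. Capitals mark the match, in ASNS 68 bases before the start in chr7:97872424-97872521 on the minus strand, and in CHAC1, where it lies on the opposite strand, 209 bases before the start in chr15:40953221-40953314 on the plus strand.
ASNS: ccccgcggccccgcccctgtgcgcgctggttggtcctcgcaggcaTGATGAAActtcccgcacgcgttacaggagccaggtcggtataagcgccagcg
CHAC1: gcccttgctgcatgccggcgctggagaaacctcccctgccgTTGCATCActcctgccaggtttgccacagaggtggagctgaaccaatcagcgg

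**Figure D4:**
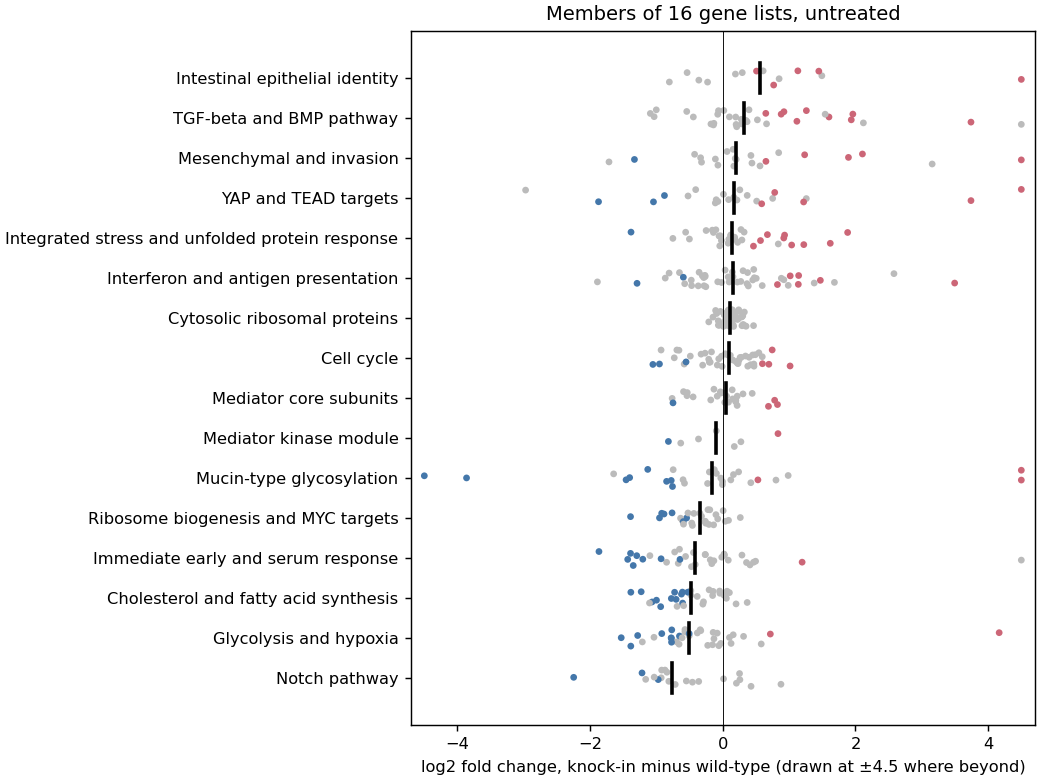
Each point is a tested member of 1 of 16 gene lists, placed by its log2 fold change, knock-in minus wild-type, without treatment (x axis, values beyond 4.5 drawn at the edge). Red and blue points were called higher and lower, and the black bar is the list's median. Medians run from -0.77 for the Notch pathway to 0.56 for the 14 tested members of the intestinal epithelial list, and single members lie far from their list's median in most lists.

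Growth factors and receptors moved both ways, with 4 called higher and 5 lower of 46 tested and a median of -0.16. Among the ligands, EGF rose from 1.103 and 1.002 to 7.35 and 7.88 CPM, 2.85 ± 0.39 (adjusted p = 0.00343), PDGFC from 16.1 and 19.8 to 58.9 and 57.2 CPM, 1.69 ± 0.16 (adjusted p = 0.000427), and FGF9 from 10.7 and 10.8 to 25.01 and 23.8 CPM, 1.18 ± 0.18 (adjusted p = 0.00505). KITLG, stem cell factor, was among the most abundant, at 1815 and 2416 against 3809 and 2889 CPM, 0.66 ± 0.17 (adjusted p = 0.0443), a call lost without wild-type library 1 or knock-in library 1. The EGF receptor EGFR fell from 111 and 93.7 to 52.6 and 47.2 CPM, -1.04 ± 0.14 (adjusted p = 0.00301), and its ligand TGFA by 0.49 on the log2 scale. The ephrin receptor EPHA4, the semaphorin and VEGF coreceptor NRP1 and the ephrin EFNB2 fell by 2.38, 1.56 and 0.95. EGF, PDGFC, FGF9, EGFR, EPHA4 and NRP1 were held.

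Notch genes had the lowest median of the lists drawn, -0.77 over 20 tested, with 3 called lower and 0 higher. The ligand JAG1 fell from 69.97 and 54.1 to 34.2 and 29.1 CPM, -0.97 ± 0.16 (adjusted p = 0.00779), the receptor NOTCH1 by 1.22 on the log2 scale and the coactivator MAML3 by 2.25. None of these 3 was held, 0 was called without knock-in library 2 and 9 without wild-type library 2. The median was -0.41 without wild-type library 1, -0.32 with the GC trend removed and -0.08 in the IFN-γ pair. Of 19 Wnt and β-catenin targets tested, 2 were called higher and 2 lower, with a median of -0.15. DKK1, a secreted Wnt inhibitor, rose from 188 and 222 to 572 and 544 CPM, 1.45 ± 0.13 (adjusted p = 0.000316), and BMP4, described above, rose too. MYC and the cyclin CCND1, from 647 and 436 to 327 and 232 CPM (-0.96 ± 0.21, adjusted p = 0.0264, lost without wild-type library 1 or knock-in library 2), fell. AXIN2, the feedback inhibitor of the pathway, was at 22.8 and 19.4 CPM in wild-type and 21.2 and 16.8 in knock-in cells, with overlapping groups, and did not pass (-0.15 ± 0.17, adjusted p = 0.618).

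Of 47 interferon and antigen presentation genes tested, 6 were called higher and 2 lower without any interferon, with a median of 0.15. It was 0.28 without knock-in library 1, 0.18 without wild-type library 1 and 0.16 with the GC trend removed. IFI6 was at 4.32 and 3.21 CPM in wild-type and 10.4 and 10.5 in knock-in cells, 1.47 ± 0.20 (adjusted p = 0.0035), and IFI35 at 5.01 and 5.26 against 10.8 and 11.8 CPM, 1.14 ± 0.15 (adjusted p = 0.00306). IFIT1, the RNA sensor DDX58 and IRF9 rose by 1.14, 1.02 and 0.82, and IFI27 rose from 0.138 and 0.1503 to 0.836 and 2.46 CPM. NLRC5, which activates class I MHC genes, and the immunoproteasome subunit PSMB10 fell by 1.29 and 0.60 on the log2 scale, the latter lost with the GC trend removed. IFI6 and IFI35 were held, and 3 to 12 members were called higher in the fits without 1 library, the 12 without wild-type library 2. The transcription factor IRF1 (-0.08 ± 0.16, adjusted p = 0.799) and the MHC gene HLA-B (-0.27 ± 0.17, adjusted p = 0.354) did not pass. Of 25 NF-κB targets and cytokines tested, 2 were called higher, ICAM1 (4.597 and 4.96 CPM in wild-type, 12.7 and 11.3 in knock-in cells) and TRAF1, and 2 lower, LCN2 and LIF (-0.98), of which ICAM1 and LCN2 were held.

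Cell cycle genes were called higher in 4 and lower in 3 of 44 tested, with a median of 0.09. The median was 0.0067 with the GC trend removed, 0.03 without knock-in library 2, 0.05 without wild-type library 1 and 0.21 without wild-type library 2. The mitotic phosphatase gene CDC25C rose from 39.5 and 46.2 to 85.2 and 87.98 CPM, 1.01 ± 0.14 (adjusted p = 0.00356), and was the only one held. CDK6, CCNE2 and CDC6 rose by 0.74, 0.69 and 0.60, and CDC25B, CCND1 and CDC25A fell by 1.05, 0.96 and 0.55 on the log2 scale. Without wild-type library 2 the counts were 20 higher and 12 lower. Of 27 p53 targets tested, PLK2 and CCNG1 were called higher and AEN and CDKN1A lower, with a median of -0.04. PLK2, a stress-induced kinase, rose from 119.9 and 133 to 346 and 363 CPM, 1.49 ± 0.12 (adjusted p = 0.000205), and was held, while CDKN1A, the p21 inhibitor, at 149 and 126 against 102 and 93.9 CPM (-0.49 ± 0.13, adjusted p = 0.0469), was lost with the GC trend removed, as was AEN. Of 30 DNA repair genes tested, ATM rose (0.77) and PRKDC fell, from 1111 and 1123 to 717 and 670.0 CPM (-0.69), neither of them held. Among 17 heat shock protein genes tested, 0 passed in edgeR, DESeq2 or limma-voom and 4 had an unadjusted p under 0.05.

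The line difference was measured a second time in the libraries with IFN-γ, which share no library with the untreated comparison, although 1 fit estimated the spread for both. Knock-in library 2 held immunoglobulin RNA in both conditions, so the measurements may not be fully independent. Of the 1392 genes called without treatment, 1353 (97.2%) had the same sign with IFN-γ, against 65.6% of all genes tested. In the IFN-γ pair, 269 genes were called higher (1.63%) and 212 lower (1.28%), and 377 of these 481 (78.4%) were also called in the same direction without treatment, which is 27.1% of the untreated calls. In opposite directions, 0 genes were called. Among the genes above, the log2 fold changes with IFN-γ were 6.68 for ANKRD1, 5.64 for MAGEB1, 4.75 for SLC2A3, 1.40 for BMP4, 1.42 for DKK1, 2.61 for ITGB8, -6.56 for GALNT14, -5.53 for PROM1 and -3.22 for HAS3, and all 9 passed. They were -0.62 for MYC (adjusted p = 0.144), -0.58 for EGR1 (adjusted p = 0.116), -0.48 for HK2 (adjusted p = 0.172) and 0.74 for IFI6 (adjusted p = 0.0623), which did not pass there.

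The median of the genes called higher was 0.92 without and 0.55 with IFN-γ, and that of the genes called lower -0.95 and -0.48. These genes were chosen for their untreated values, so the smaller medians are a description. A test of the difference itself, the interaction of line and treatment, called 0 genes with edgeR, with 1119 of the 16519 at an unadjusted p under 0.05. MYC had an interaction of 0.77 (adjusted p = 0.688) and VIM, at 2.87 with IFN-γ (adjusted p = 0.00541) and 0.19 without, one of 2.69 (adjusted p = 0.688), so a difference between the conditions was not shown for either. Knock-in library 2 with IFN-γ also held immunoglobulin RNA, 279 CPM against 0.306 to 1.28 in the other 3 of that pair.

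**Figure D5:**
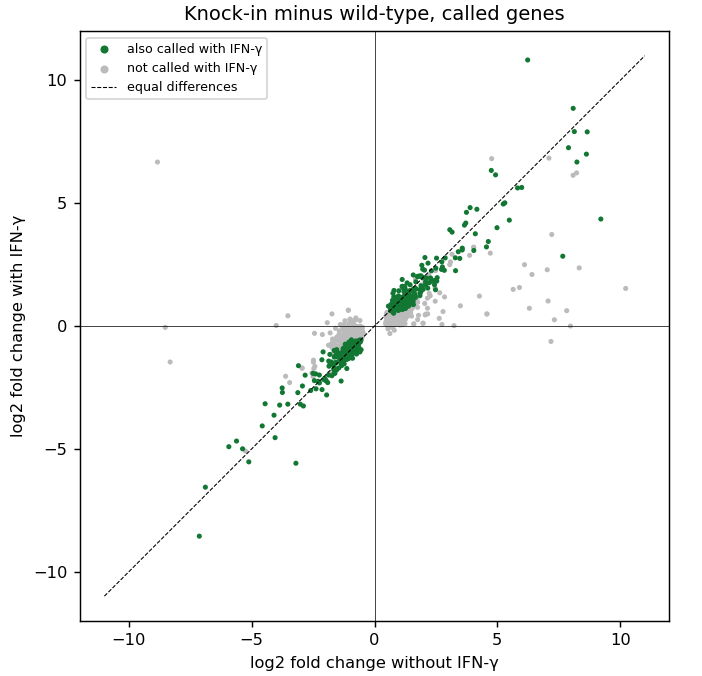
Log2 fold change, knock-in minus wild-type, without IFN-γ (x axis) and with IFN-γ (y axis) for the genes called without treatment, those of chromosome Y left out. Green points were also called with IFN-γ, grey points were not, and the dashed line marks equal differences. Most points lie to the upper right and lower left, as 97.2% of the called genes had the same sign in both.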

How the data were processed

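Per the submitters' processing notes, Trimmomatic, kallisto and GRCh38 were used. Tool versions and the transcript annotation were not given in the sources used here. Estimated counts by the authors were deposited for 40295 gene IDs and for 63 ERCC spike-ins. Of the nonzero values, 58.3% are not whole. They were rounded, spike-ins were left out, and IDs were named from GENCODE release 29 (35583 matched and 4712 did not; 1239 of the tested genes had no name). Reads split between near-identical genes make their values uncertain.

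Genes passing edgeR's filterByExpr (minimum count 10) were tested with edgeR 4.0.16 in R 4.3.3 by the quasi-likelihood test with TMM scaling and group as the only factor. All 8 libraries shared 1 estimate of the spread (common biological coefficient of variation 20.4%). A call was a Benjamini-Hochberg adjusted p under 0.05. Errors are ± 1 SE of the log2 fold change; CPM are TMM-scaled. On simulated counts with known changes the script recovered the changed genes by size of fold, which checks the code only. The simulation gave every gene the same dispersion and held no GC trend, outlying library or uneven plasma cell RNA. It therefore cannot show how many of the calls in these data are right. Alternatives used DESeq2 1.42.0, limma-voom (limma 3.58.1), other scalings, filters and covariates, and each untreated library left out.

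Named genes were the 15 largest rises and falls at 5 CPM or more, the 10 most abundant called genes with at least a 2-fold change, the largest called members of lists with at least 3 calls, and a set of genes of the kinase module and its known targets. The largest rises and falls were taken only among called genes whose lines did not overlap. Other called list members are named for completeness and were chosen after their values were seen. The gene lists and the choice of this comparison were made with earlier results of these data known. A few genes that the naming rule or the lists hold are not reported here.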

Additional observations from a re-analysis of the deposited data

How the results depend on the processing

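The number of calls depended on the fit. No gene of the 1392 was called in the opposite direction in any alternative. Every alternative reused the same libraries, so this adds no support to the directions. Against 703 higher and 689 lower, DESeq2 called 2291 (1075 and 1216), no filter on low counts 2959 (1315 and 1644), the 4 untreated libraries alone 614 (353 and 261), glmTreat against 1.5-fold 250 (146 and 104), removal of the GC and length trend 2522 (1147 and 1375) and ERCC scaling 667 (150 and 517). DESeq2 size factors (1280), limma-voom (1467) and a minimum of 50 counts (1655) stayed within 1.5 times the 1392. Leaving out 1 library gave 406 to 4815 calls, 249 to 2347 higher and 156 to 2468 lower, with the highest values without wild-type library 2 and the lowest without a knock-in library; a lone library was then assumed to vary like the other groups.

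The share of called genes with the same sign with IFN-γ, 97.2%, was 98.2% with ERCC scaling, 94.98% with DESeq2, 88.8% with no filter, 99.6% with glmTreat and between 76.4% (without wild-type library 2) and 97.9% in the fits without 1 library. With the replicate number as a block, 1849 genes were called (824 higher, 1025 lower) and 95.9% kept the sign. Deviations of same-numbered libraries correlated at 0.02 to 0.28 (0.15 for the untreated groups), and the main fit did not pair them. The 0.28 was between the knock-in groups without and with IFN-γ. Knock-in library 2 held immunoglobulin RNA in both conditions, at 359 and 279 CPM. Whether same-numbered libraries share more than a number was not tested. Log2 fold changes of genes that were not called changed sign. AXIN2 was 0.057 with the trend removed and IRF1 0.11, CCNC -0.031, MED13 -0.14 and VIM -0.13 with ERCC scaling. Without 1 library, AXIN2 ran from -0.33 to 0.012, IRF1 from -0.26 to 0.14, MED12L from -0.19 to 0.0052 and VIM from -0.32 to 0.56. The cause was not tested. With 2 libraries a line, small changes and genes near the filter are at the limit of detection.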

Other observations

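Called genes also stood next to each other. Ordered along each chromosome, the 13040 genes at 1 CPM or more gave 12937 windows of 5 neighbours, and 5 separate runs had at least 4 of 5 called in 1 direction, 4 of them higher and 1 lower. The run that fell lies on chromosome 19 (50797704 to 51020175, GRCh38) and holds the kallikrein-related secreted proteases KLK5, KLK6, KLK7, KLK8 and KLK10, all 5 family members at 1 CPM or more. KLK6 was at 30.8 and 22.5 CPM in wild-type and 5.85 and 8.62 in knock-in cells, KLK7 at 26.2 and 21.99 against 4.12 and 5.01, and KLK8 at 16.4 and 18.2 against 5.51 and 7.47. KLK10 went from 12.6 and 7.82 to 2.23 and 2.63 CPM, and KLK5 from 4.23 and 3.81 to 0 and 0.0410. The run's median log2 fold change was -1.97 without and -1.97 with IFN-γ.

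The run on chromosome 3 (111592900 to 112585577) had 6 of 7 genes called higher, with a median of 1.16, and contains PHLDB2 and ABHD10. ZBED2, a zinc finger gene in it, was at 19.7 and 20.7 CPM in wild-type and 144 and 145 in knock-in cells. On chromosome 10, the run that was higher holds NEBL, CASC10 and SKIDA1, with NEBL, a nebulin-like actin-binding protein, at 12.04 and 17.99 against 113 and 85.7 CPM. On chromosome 7 (13891228 to 16784536), 4 of 5 were higher, among them ISPD and ETV1, an ETS factor at 40.6 and 51.0 against 116 and 120.2 CPM. On chromosome 6 (118894220 to 122471822), 5 of 6 were higher, with a median of 1.03. The number of such runs was not compared with other orders of the genes, and these genes were named after their values were seen.

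HOX genes were called higher in 3 and lower in 0 of 30 tested, with a median of 0.13, which was 0.41 without wild-type library 1, 0.05 without wild-type library 2 and 0.33 with the GC trend removed. HOXA9 was at 51.9 and 42.9 CPM in wild-type and 76.2 and 77.0 in knock-in cells, and HOXA10 at 34.3 and 28.96 against 47.9 and 51.00. HOXA2 had 0 counts in both wild-type libraries and was at least 4.85-fold higher. All 3 calls were lost without either knock-in library. Of 11 mitochondrially encoded mRNAs tested, MT-ND6, the one encoded on the light strand, was called lower, at 75.0 and 65.3 against 28.5 and 20.6 CPM, and this call was lost without wild-type library 1 or either knock-in library. The median of the 11 was -0.24. It was -0.76 without knock-in library 2 and 0.14 without knock-in library 1, so no direction is given for the list. Of the 13 genes tested on chromosome Y, 4 were called lower and 0 higher, against 4.17% of all genes called lower.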
